A study of Mus musculus with 8 samples.

Results

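Arg1, Odc1, Azin1, Oaz1, Oaz2, Srm, Sms, Sat1 and Amd1 encode the enzymes and regulators that turn arginine into polyamines. These 9 genes, of 27179 in the deposited table, were taken by gene symbol and followed in sorted lymphoid tissue inducer (LTi) cells. LTi cells are relatives of group 3 innate lymphoid cells (ILC3) that carry lymphotoxin and are needed for lymph nodes and Peyer's patches to form. The list was drawn up because Arg1 and Azin1 differed by tissue and Srm by genotype in these same libraries, so for the 9 genes every tissue and genotype difference is a description of the values that chose the genes and is no evidence of a difference. Only the interaction (the genotype difference in one tissue minus that in the other), which the choice did not name, was tested for them. It is computed from the same 8 libraries and is not independent of the differences within 1 tissue or genotype.

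The cells came from C57BL/6 mice and were sorted as live, lineage-negative cells that carried CD127 and CCR6 but no KLRG1, NK1.1 or NKp46, from Peyer's patches (PP), the lymphoid follicles of the gut wall, or from the small intestine lamina propria (LP). The control mice were Tcf7+/+. The mice labelled knockout carried the floxed allele Tcf7fl/fl and a Cre that is not limited to LTi cells, so that other lymphocytes can be targeted too. Tcf7 encodes TCF-1, a transcription factor of the Wnt pathway. Each of the 4 groups (PP control, PP labelled knockout, LP control, LP labelled knockout) held 2 Smart-seq2 libraries of total RNA, so n = 2 at every mean ± SD. The labels give no age or sex and do not say whether the 2 libraries of a group, or the PP and LP libraries of a genotype, came from separate animals; p-values therefore measure only the spread between these libraries.

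Arginase 1 splits arginine into urea and ornithine. Ornithine decarboxylase, encoded by Odc1, makes putrescine from ornithine. Spermidine synthase (Srm) and spermine synthase (Sms) then add aminopropyl groups, which come from S-adenosylmethionine after its decarboxylation by the product of Amd1. Sat1 acetylates spermidine and spermine for export or breakdown. Antizymes (Oaz1, Oaz2) bind ornithine decarboxylase and hand it to the proteasome, and antizyme inhibitor (Azin1), a relative of ornithine decarboxylase without its activity, binds the antizymes in its place. Arginase 1 is best known in myeloid cells and in group 2 innate lymphoid cells (ILC2), and proliferating cells are known to need polyamines.

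The antizymes carry the sequence that makes this pathway sense its own product. Full-length antizyme is made only when the ribosome slips forward by a single base at an internal TGA stop, a slip that polyamines favour. The slip sites of both genes are shown because they tie the mRNA levels below to a product that the mRNA level alone does not fix. They were read on GRCm38 from each gene's longest GENCODE M21 transcript with the site, for both genes a form with a retained intron. Of the 36 bases shown, 36 for Oaz1 and 35 for Oaz2 lie in annotated coding sequence. The capitals mark TCCTGATG, which holds the TGA stop. The Oaz1 site lies at chr10:80828278-80828313 and the Oaz2 site at chr9:65686255-65686290, both on the plus strand.
Oaz1: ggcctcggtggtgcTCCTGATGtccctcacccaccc
Oaz2: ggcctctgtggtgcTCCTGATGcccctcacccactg
The 2 sites were identical at 32 of 36 bases.

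Values are RPKM (reads per kilobase of transcript and per M reads), recovered from the deposited log2 scale, and can be compared between genes because they are per length. Depth was estimated from what a single read adds to RPKM, using 27 to 44 low values per library among 539 genes of known length. It was 38.2 to 44.2 M reads per library, and 6365 to 8433 genes reached 1 RPKM. Immunoglobulin genes took 2.81% to 17.1% of summed RPKM and mitochondrially encoded genes 3.06% to 13.6%, with both PP labelled knockout libraries at 13.4% and 13.6% and the other 6 at 5.06% or less. Replicates of these small samples often disagreed: of the 6514 genes that reached 10 RPKM in PP control, 40.1% differed more than 10-fold between the 2 libraries, against 24.4% in PP labelled knockout, 15.4% in LP control and 24.3% in LP labelled knockout. None of the 9 genes was among them, though Amd1 in PP control and Sms in PP labelled knockout, both under 10 RPKM, also differed more than 10-fold. The targeted transcript was not lower in the labelled knockout: Tcf7 stood at 243 and 85.4 RPKM in PP control, 355.5 and 337 in PP labelled knockout, 229 and 246 in LP control and 237 and 215 in LP labelled knockout. A value for the whole gene does not separate the floxed part from the rest, so the genotype is called by its label throughout.

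The LTi identity of the sort was visible in every library. All 13 LTi and ILC3 markers were kept, with a sum of 6629 to 8106 RPKM. Of 16 myeloid markers 3 were kept, with sums of 34.1 to 272 RPKM in PP control, 228 to 282 in PP labelled knockout, 62.3 to 89.1 in LP control and 106 to 183.5 in LP labelled knockout. Fcgr3 made up most of these in all but the 2 LP labelled knockout libraries, where Cd14 stood at 90.5 and 32.5 RPKM. Cd68 reached 65.2 RPKM in PP control 1 and 28.6 in PP labelled knockout 1, and Lyz2 17.3 in the latter, each under 1 in the other library of its group. In LP labelled knockout Cd68 stood at 9.38 and 20.3 RPKM. Csf1r did not exceed 2.07 RPKM, Itgam did not exceed 0.156, and S100a8, S100a9, Mrc1, Chil3, C1qa, C1qb and C1qc were listed at 0 in all 8. A listed 0 is not read as absence, here or for the ILC2 markers below. Atp13a2 and Ddah2, genes with broad expression, were also listed at 0 in all 8. Of 11 ILC2 markers 4 were kept, with sums of 99.6 to 132, 51.9 to 68.0, 155 to 161 and 240 to 242 RPKM in the same order of groups. Il13, Il5 and Rxrg were listed at 0 in all 8 libraries, Il1rl1 did not exceed 0.00373 RPKM, Gata3, which ILC3 also express, was at 24.2 to 119 RPKM in all 8, and Areg was at 0.373 to 0.582 RPKM in PP and 90.9 to 204 in LP. In single libraries Il17rb reached 26.5 RPKM, Il9r 11.9 and Klrg1, whose product the sort gated out, 10.7. B and plasma cell markers (11 of 12 kept) summed to 13634 to 13718 RPKM in PP control, 7126 to 7390 in PP labelled knockout, 24483 to 38719 in LP control and 25096 to 25218 in LP labelled knockout, mostly immunoglobulin transcripts. Epithelial markers (14 of 17 kept) summed to 191 to 337, 688 to 756, 149 to 361 and 196 to 568 RPKM. T cell markers (8 of 10) summed to 245 to 388, 332 to 448, 87.0 to 109 and 78.5 to 216. Cd4 alone, at 48.7 to 318 RPKM, made up most of the T cell sum in all 8 libraries. The part of these markers, and of the mitochondrial share, in the differences below was not tested. Fewer expressing cells and less RNA per cell cannot be told apart in these bulk libraries.

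Arg1 was among the most abundant transcripts in LTi cells of both tissues and was higher in LP. It encodes arginase 1 and lies at chr10:24915207-24927470 on the minus strand (Entrez Gene 11846; gene positions here are RefSeq, GRCm38.p6). Its RPKM was 375.9 and 278.1 in PP control, 470.6 and 477.1 in PP labelled knockout, 760.4 and 749.3 in LP control and 637.3 and 721.8 in LP labelled knockout. All 4 LP libraries lay above all 4 PP libraries, and even the lowest group mean, 327 ± 69.1 (SD) in PP control, stood above 97.6% of the 10541 genes kept. In order, PP control was followed by PP labelled knockout (474 ± 4.58), LP labelled knockout (680 ± 59.8) and LP control (755 ± 7.84). On the log2(RPKM + 1) scale the LP minus PP difference was 1.22 ± 0.22 (SE of the limma fit) in control and 0.52 ± 0.22 in the labelled knockout. The 2 LP groups, neighbours in that order, differed by less than this standard error (-0.15 ± 0.22), while the 2 PP groups differed by 0.55 ± 0.22.

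Odc1, the enzyme that commits ornithine to polyamines, was low relative to Arg1 in PP and overtook it in LP control. The gene lies at chr12:17544808-17551502 on the plus strand. Odc1 RPKM was 148 and 115 in PP control, 172 and 166 in PP labelled knockout, 1174 and 1033 in LP control and 893 and 534 in LP labelled knockout. The tissues did not overlap, and the LP labelled knockout libraries spread widely below the LP controls. Group means ran from 132 ± 23.4 (PP control) through 169 ± 4.23 (PP labelled knockout) and 714 ± 254 (LP labelled knockout) to 1103 ± 99.9 (LP control), where Odc1 stood above 99.4% of genes kept. The LP minus PP difference was 3.07 ± 0.31 on the log2 scale in control and 2.03 ± 0.31 in the labelled knockout. Part of the Odc1 sequence recurs elsewhere: 42.2% of its 50-base words occur in transcripts of other genes, mainly pseudogene copies, so reads may have been shared with them.

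Azin1, whose product frees ornithine decarboxylase from antizyme, had the largest difference between tissues of the 9 genes on the log2 scale. It lies at chr15:38487430-38519294 on the minus strand and shares no 50-base word with any other gene, Odc1 included. Azin1 was at 0.872 and 0.851 RPKM in PP control, about 165 and 183 reads, and at 21.4 and 22.5 RPKM in PP labelled knockout. In LP it reached 174 and 207 RPKM in control and 145 and 329 in the labelled knockout. The order was PP control (0.861 ± 0.0154), PP labelled knockout (21.9 ± 0.763), LP control (191 ± 23.6) and LP labelled knockout (237 ± 130.4), and the 2 LP groups overlapped. The LP minus PP difference was 6.68 ± 0.62 in control and 3.26 ± 0.62 in the labelled knockout on the log2 scale, and the labelled knockout minus control difference was 3.62 ± 0.62 in PP and 0.20 ± 0.62 in LP.

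**Figure D1:**
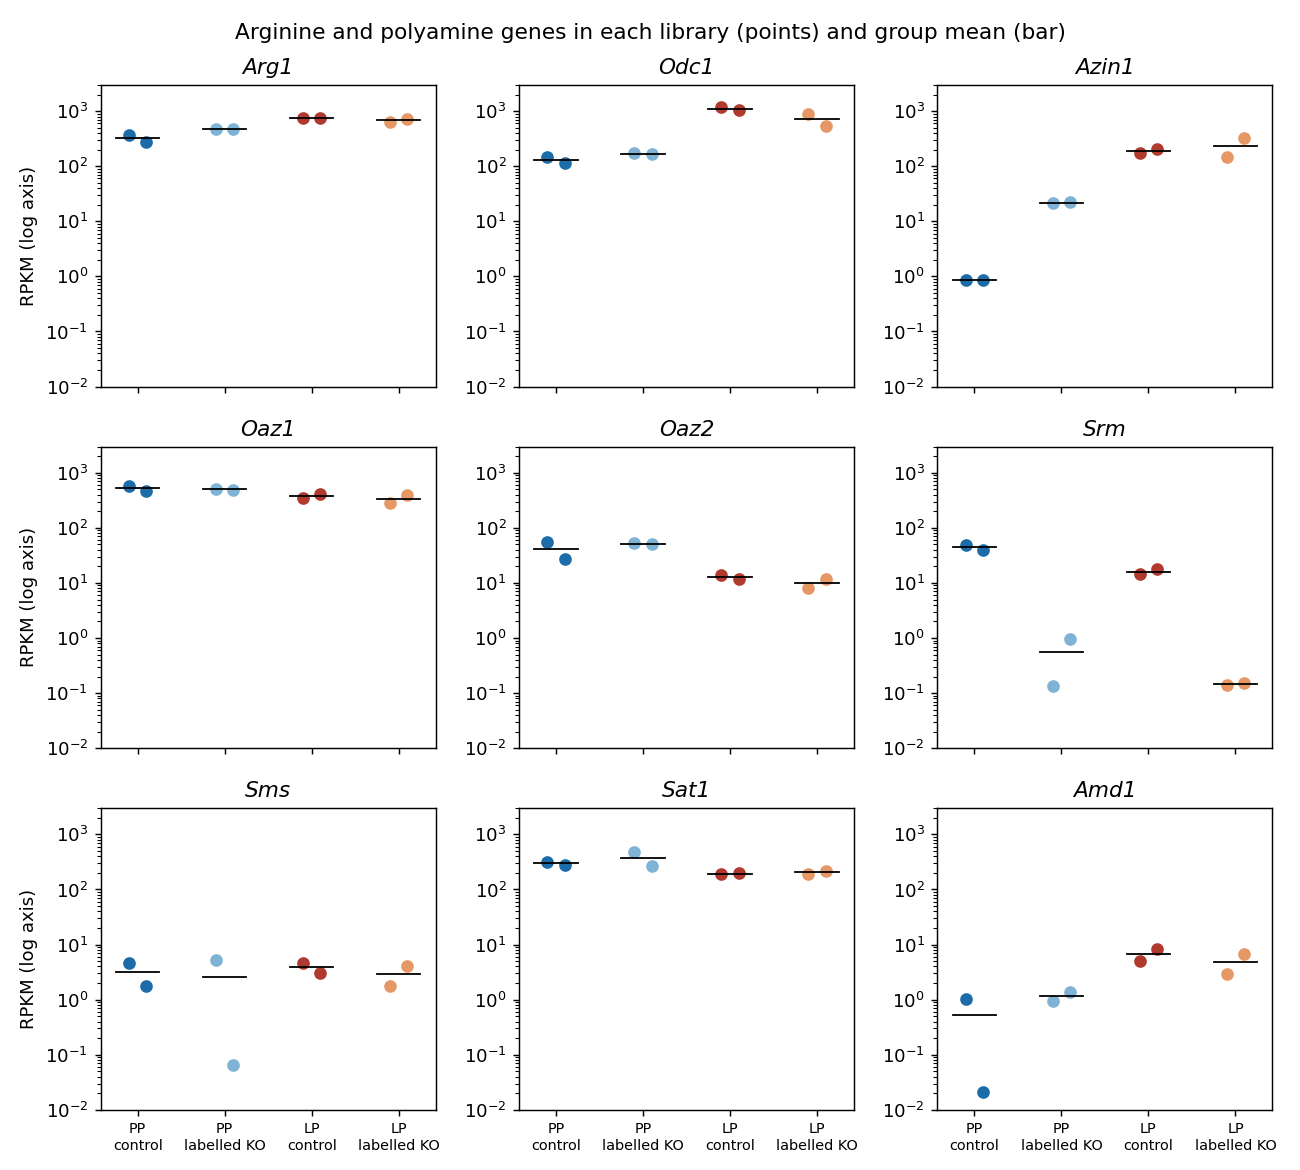
RPKM on a log axis of the 9 arginine and polyamine genes in each library (points) with the mean of each group of 2 (bars), for PP and LP, control and labelled knockout. Azin1 is under 1 RPKM in PP control and over 100 in LP, Odc1 and Arg1 are higher in every LP library than in any PP library, and Srm is under 1 RPKM in all 4 labelled knockout libraries.

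Both antizymes went the other way. Oaz1, the main antizyme (chr10:80826656-80829290, plus strand), was at 573 and 475 RPKM in PP control, 514 and 488 in PP labelled knockout, 349 and 408 in LP control and 283 and 396 in LP labelled knockout. In deposited RPKM no LP library reached the lowest PP library. The difference was small: -0.47 ± 0.26 in control and -0.58 ± 0.26 in the labelled knockout on the log2 scale. After rescaling by median of ratios it was -0.80 in control and -0.12 in the labelled knockout. By genotype the group means, 524 ± 69.1 and 501 ± 18.4 in PP and 378 ± 41.6 and 339 ± 80.2 in LP, differed by less than their spread. Oaz1 shares 52.2% of its 50-base words with 1 other gene, the pseudogene Oaz1-ps.

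Oaz2, a less abundant antizyme (chr9:65676548-65690300, plus strand), was also lower in LP, with a larger fitted difference and a larger error than Oaz1. Its RPKM was 55.2 and 27.5 in PP control, 52.5 and 51.5 in PP labelled knockout, 13.8 and 11.7 in LP control and 8.09 and 12.0 in LP labelled knockout. The tissues did not overlap, with differences of -1.55 ± 0.69 in control and -2.28 ± 0.69 in the labelled knockout. The means of control and labelled knockout, 41.4 ± 19.6 and 52.0 ± 0.686 in PP and 12.7 ± 1.45 and 10.1 ± 2.79 in LP, were within 1 standard error of each other on the log2 scale. Oaz1 exceeded Oaz2 by 9.46 to 17.3 times in the PP libraries and by 25.4 to 34.9 times in the LP libraries. Of the 50-base words of Oaz2, 12.0% occur in other transcripts, mainly the pseudogene Oaz2-ps.

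The balance of antizyme inhibitor and antizyme transcripts followed mostly from Azin1. Group means ran from 0.861 to 237 RPKM for Azin1 and only from 339 to 524 for Oaz1. The Azin1 to Oaz1 ratio of RPKM within a library was 0.00152 and 0.00179 in PP control, 0.0416 and 0.0461 in PP labelled knockout, 0.498 and 0.508 in LP control and 0.511 and 0.831 in LP labelled knockout. The 4 groups fell in 3 tiers, with the LP groups together at the top. The Odc1 to Oaz1 ratio was 0.242 to 0.340 over the 4 PP libraries and 1.35 to 3.36 over the 4 LP libraries. By RPKM, ornithine decarboxylase transcripts were thus fewer than those of its antizyme in every PP library and more in every LP library. Both genes share 50-base words with other transcripts, mainly pseudogenes (42.2% for Odc1, 52.2% for Oaz1). How reads matching several genes were treated is not known, so the level of this ratio is uncertain. Transcripts of Odc1 exceeded those of Azin1 in all 8 libraries, by 170 and 135 times in PP control but by no more than 8.03 times in the other 6. These are ratios of mRNA; antizyme protein also depends on the frameshift shown above.

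**Figure D2:**
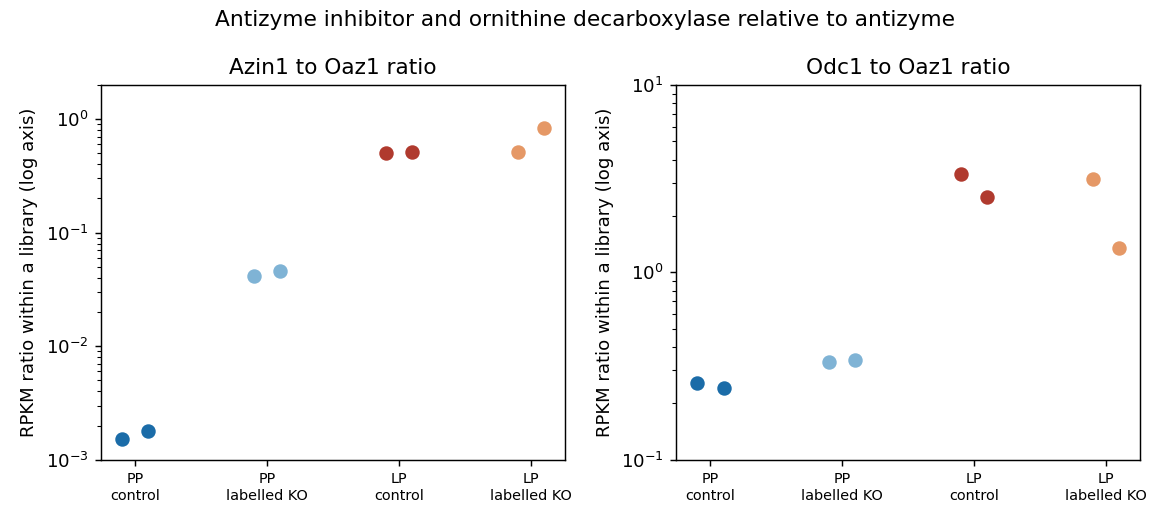
RPKM of Azin1 (left) and of Odc1 (right) divided by that of Oaz1 within each library, on log axes, for the 2 libraries of each group. Azin1 relative to Oaz1 lies in 3 tiers between 0.00152 and 0.831, and Odc1 passes Oaz1 in all 4 LP libraries and in no PP library. Odc1 and Oaz1 both share sequence with pseudogenes, so the level of their ratio is uncertain.

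Srm, the spermidine synthase, was higher in every control library than in any labelled knockout library, which is why it was chosen. It lies at chr4:148591513-148594619 on the plus strand. Its RPKM was 49.4 and 40.0 in PP control and 14.3 and 17.8 in LP control, against 0.136 and 0.973 in PP labelled knockout and 0.143 and 0.153 in LP labelled knockout. In reads these are about 2560, 2364, 733 and 927 in the controls and 7, 52, 8 and 8 in the labelled knockout. Every control library was above 10 RPKM and every labelled knockout library under 1. The labelled knockout minus control difference was -4.92 ± 1.01 in PP (44.7 ± 6.62 against 0.555 ± 0.592 RPKM) and -3.89 ± 1.01 in LP (16.1 ± 2.46 against 0.148 ± 0.00714 RPKM). Within the controls Srm was lower in LP, by -1.42 ± 1.01 on the log2 scale, the reverse of Odc1, whose product feeds it.

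The rest of the chain past putrescine was sparse. Amd1, the decarboxylase that supplies aminopropyl groups (chr10:40287458-40302188, minus strand), was at 1.04 and 0.0211 RPKM in PP control, 0.944 and 1.40 in PP labelled knockout, 5.01 and 8.37 in LP control and 2.94 and 6.61 in LP labelled knockout. All LP libraries were above all PP libraries, though the second PP control value rests on about 3 reads and stands apart from the first. The LP minus PP difference was 2.38 ± 0.99 in control and 1.34 ± 0.99 in the labelled knockout. Amd1 is uncertain as a single gene, because 87.6% of its 50-base words occur in other genes' transcripts, and 86.05% of all its words occur in its near copy Amd2 (0 to 2.83 RPKM).

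Sms, the spermine synthase (chrX:157443851-157492287, minus strand), had no pattern by tissue or genotype. The 8 values were 4.61 and 1.80 RPKM in PP control, 5.19 and 0.0663 in PP labelled knockout, 4.68 and 3.02 in LP control and 1.78 and 4.10 in LP labelled knockout, so that replicates of one group differed by as much as the groups did. All 6 differences of Sms lay within 1 standard error of 0, the largest being -0.63 ± 1.21 between genotypes in PP. Of its 50-base words 28.7% occur in other transcripts, above all the pseudogene Sms-ps, so reads may have been shared. Sat1, the acetyltransferase that opens polyamine breakdown (chrX:155213126-155216449, minus strand), was abundant: 320 and 282 RPKM in PP control, 478 and 262 in PP labelled knockout, 192 and 198 in LP control and 192 and 220 in LP labelled knockout. In deposited RPKM it was lower in every LP library than in any PP library, and the genotypes overlapped in both tissues. The LP minus PP difference of Sat1 was -0.62 ± 0.35 in control and -0.78 ± 0.35 in the labelled knockout. Under other processing settings the latter ran from -1.22 to -0.32.

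**Figure D3:**
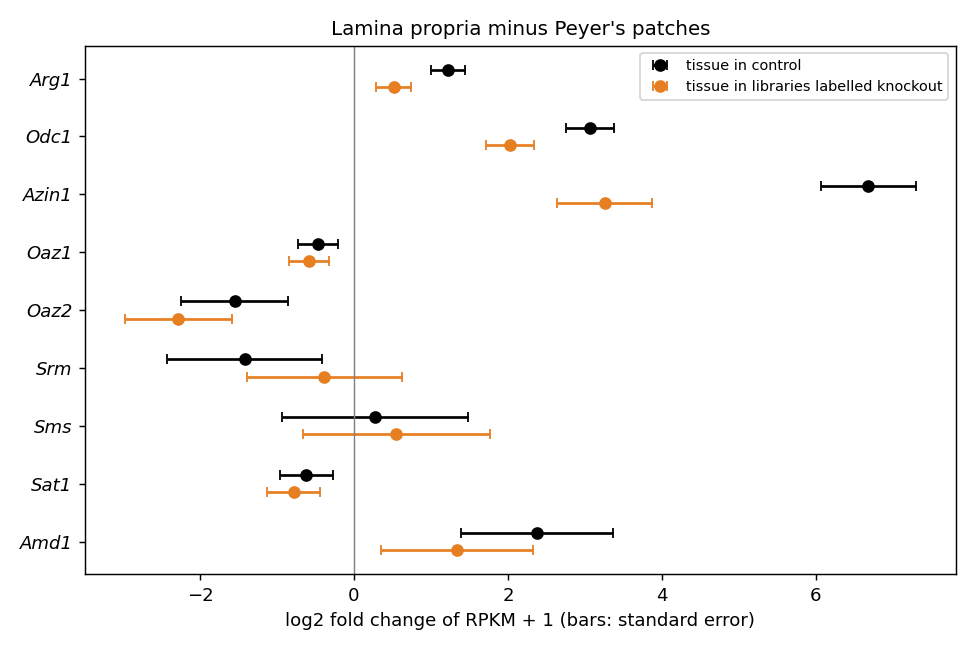
Difference between LP and PP on the log2(RPKM + 1) scale for each of the 9 genes, in control (black) and in the libraries labelled knockout (orange), with standard errors of the limma fit. Arg1, Odc1, Azin1 and Amd1 lie above 0 and Oaz1, Oaz2 and Sat1 below 0 in both genotypes, Azin1 reaching 6.68 in control.

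Read as a set on deposited RPKM, 7 of the 9 genes had non-overlapping tissues over the 8 libraries, beside 13.6% of all genes kept. Of these 7, 4 were higher in LP (Arg1, Odc1, Azin1, Amd1) and 3 lower (Oaz1, Oaz2, Sat1). Overlap was not recounted after rescaling. Median-of-ratios rescaling moved the tissue difference of Oaz1 in the labelled knockout from -0.58 to -0.12. By genotype over the 8 libraries 1 of 9, Srm, did not overlap, against 2.9% of genes. Within a pair of groups the background is far higher: 8 of 9 did not overlap by tissue in control (47.4% of genes), 7 by tissue in the labelled knockout (45.6%), 4 by genotype in PP (37.5%) and 3 by genotype in LP (35.6%). The same holds for the counts past an adjusted p of 0.05 (limma, Benjamini-Hochberg over all genes), which serve here only to describe the values that chose the genes. They were 3 of the 9 (Arg1, Odc1, Azin1) for tissue in control, where 2.13% of all genes were past it, and the same 3 for the average tissue difference (4.33%), of which Arg1 (0.87 ± 0.21) dropped out when any 1 of the 8 libraries was left out. For tissue in control the count was 0 without either LP control library. The count was 1 (Odc1) for tissue in the labelled knockout (2% of genes) and 0 for genotype in PP (0.36%), in LP (0.0285%) and on average (0.00949%). At an unadjusted p under 0.05 the genotype contrasts had 3, 1 and 2 of the 9, beside 1201, 556 and 718 of the 10541 genes kept. Nothing is read from these counts, since the genes were chosen on these contrasts.

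The test that the choice of genes did not name asks whether the genotype difference was the same in both tissues. It is not independent of differences within 1 tissue or genotype, on which the choice may have rested. None of the genes passed (0 of 9, where 0.0285% of all genes did). At an unadjusted p under 0.05 there was 1 of the 9, beside 922 of the 10541 genes kept. With 2 libraries a group, missing the threshold does not show that the genotype differences were equal. The 1 gene at an unadjusted p under 0.05 was Azin1, with a genotype difference in LP minus that in PP of -3.42 ± 0.88 on the log2 scale (limma, adjusted p = 0.319). Odc1 (-1.04 ± 0.44, adjusted p = 0.571) and Arg1 (-0.70 ± 0.32, adjusted p = 0.602) had estimates of the same sign, higher in both PP labelled knockout libraries and lower in both LP ones than in their controls. For Srm the estimate was 1.04 ± 1.42 (adjusted p = 0.914), an error wide enough to hide a sizeable difference between tissues. The other 5 had estimates between -1.04 (Amd1) and 0.28 (Sms), each within 1 standard error of 0, with adjusted p from 0.910 to 0.986. The median interaction was -0.70 over the 9 genes and -0.39 over all genes kept. Scaling bears on these signs: rescaling by median of ratios moves the median over all genes to 0.17, Arg1 to 0.09, and the PP genotype differences of Arg1, Odc1, Oaz2 and Sat1 turn negative (-0.03, -0.21, -0.16 and -0.34), as the LP ones of Arg1 and Oaz1 turn positive (0.07 and 0.05). Azin1 in PP and Srm in both tissues kept their sign under both rescalings.

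**Figure D4:**
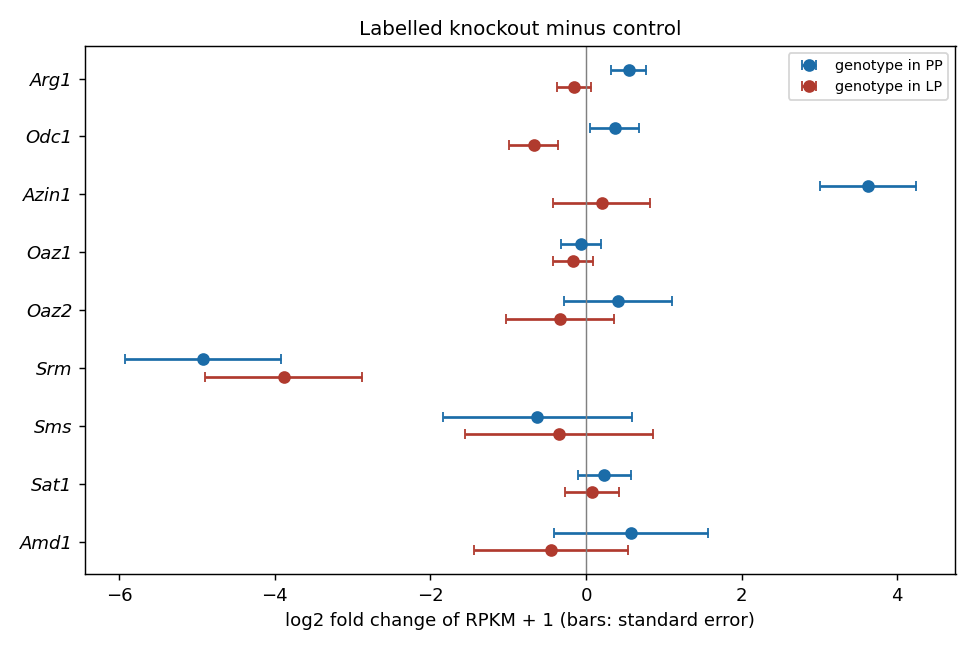
Difference between labelled knockout and control on the log2(RPKM + 1) scale for each of the 9 genes, in PP (blue) and in LP (red), with standard errors of the limma fit. Srm lies far below 0 in both tissues (-4.92 and -3.89), Azin1 lies above 0 in PP (3.62) and near 0 in LP (0.20), and the other 7 lie within 1 of 0.

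Around the 9 genes, 36 further genes of 6 lists were kept and could be tested in all 7 contrasts. The lists were drawn up with earlier results of these data known, which the p-values do not allow for. Of these 1 passed, beside 4.33% of all genes for the average tissue difference, so the count of 1 in 36 does not set the lists apart. It was the rise of Slc3a2 from PP to LP (2.89 ± 0.39 on average, adjusted p = 0.00242, higher in 4 of 4 LP libraries than in any PP library). Slc3a2 encodes the heavy chain shared by amino acid transporters, including those that exchange cationic amino acids such as arginine. Its RPKM was 122 and 31.8 in PP control, 78.7 and 60.5 in PP labelled knockout, 463 and 419 in LP control and 526 and 582 in LP labelled knockout. Over the 36 genes the median average tissue difference was 0.43 with 23 above 0, beside 0.41 for the 9 genes and -0.10 for all genes kept, of which 47% were above 0.

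Of 21 genes for arginine supply and use, 5 were kept, and 1 rose and 0 fell between tissues. After Slc3a2 the most abundant were Asl, the argininosuccinate lyase that makes arginine (46.6 to 58.2 RPKM in PP, 12.2 to 35.3 in LP; -1.41 ± 0.54, adjusted p = 0.181), and the transporter Slc7a6, whose replicates differed from 0.158 to 41.8 RPKM within PP control. Slc7a1, the main cationic amino acid transporter, was named after its values were seen: 0.093 and 0.091 RPKM in PP control, 2.88 and 2.74 in PP labelled knockout, 32.8 and 20.6 in LP control and 20.9 and 12.9 in LP labelled knockout (3.41 ± 0.93, adjusted p = 0.0698). Of other users of arginine, Arg2, the second arginase, and the nitric oxide synthases Nos1 and Nos3 were listed at 0 in all 8 libraries, as were genes with broad expression such as Atp13a2 and Ddah2, so a listed 0 is not read as absence. Nos2 did not exceed 1.46 RPKM, and Gatm and Gamt, of creatine synthesis, were at 28.9 and 20.9 RPKM in 1 library each and under 0.1 in the other 7.

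Ornithine can also leave towards glutamate and proline, and none of the 6 genes kept of 8 listed passed. Oat, which takes ornithine towards glutamate, was the most abundant: 3.65 and 53.0 RPKM in PP control, 36.1 and 0.577 in PP labelled knockout, 107 and 85.4 in LP control and 31.6 and 154 in LP labelled knockout (2.91 ± 1.09, adjusted p = 0.174). Aldh18a1, which makes the precursor of proline and ornithine from glutamate, was at 0.0894 to 35.0 RPKM (0.22 ± 1.19, adjusted p = 0.952).

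Polyamine turnover and transport had 5 genes kept of 10, and none passed. Smox, the spermine oxidase, was by far the most abundant (322 and 114 RPKM in PP control, 215 and 164 in PP labelled knockout, 55.7 and 139 in LP control and 148 and 198 in LP labelled knockout; -0.62 ± 0.44, adjusted p = 0.478). Azin2, the other antizyme inhibitor, was detected at 21.3 RPKM in 1 PP labelled knockout library and did not exceed 4.82 in the other 7, and Atp13a3, a polyamine transporter, did not exceed 9.78 RPKM.

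Spermidine is the donor of hypusine, a modified lysine of the translation factor eIF5A, and 3 of the 4 genes of that pathway were kept. Eif5a was at 654 and 506 RPKM in PP control, 404 and 466 in PP labelled knockout, 352 and 275 in LP control and 371 and 477 in LP labelled knockout (average tissue difference -0.46 ± 0.25, adjusted p = 0.339; average genotype difference 0.01 ± 0.25, adjusted p = 0.997). It stayed abundant in the 4 libraries with Srm under 1 RPKM. The hypusine enzymes Dohh (0.482 to 85.8 RPKM) and Dhps (0.0955 to 51.5 RPKM) had genotype differences of -2.35 ± 1.34 and -2.34 ± 1.02 that did not pass (adjusted p = 0.744 and 0.726), and their replicates scattered.

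All 8 genes of S-adenosylmethionine supply and methionine salvage were kept, and none passed. Mat2a, which makes the S-adenosylmethionine that Amd1 uses, was at 80.6 and 42.5 RPKM in PP control, 51.7 and 55.5 in PP labelled knockout, 219 and 131 in LP control and 130 and 163 in LP labelled knockout. Its tissues did not overlap, which held for 13.6% of all genes kept. The average difference of Mat2a, 1.47 ± 0.37, just missed the threshold (limma, adjusted p = 0.0517). Mat2b, its regulatory partner (7.16 to 79.8 RPKM), and the salvage enzyme Mri1 (0.189 to 65.6 RPKM) had differences of -0.26 ± 0.77 and -2.22 ± 0.99 (adjusted p = 0.908 and 0.255).

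Odc1 and Srm are textbook targets of MYC, and 9 of 10 genes of the MYC network were kept, with none passing. Myc itself, named after its values were seen, was at 0.0535 and 0.0282 RPKM in PP control, 19.9 and 14.5 in PP labelled knockout, 0.0326 and 0.0745 in LP control and 6.97 and 1.27 in LP labelled knockout. The 2 genotypes did not overlap, which held for 2.9% of all genes kept, and the difference was 3.06 ± 0.89 (limma, adjusted p = 0.709). The part of Myc in the values of Odc1 and Srm was not tested. The most abundant of the network were Mxd1, a partner of MAX that opposes MYC (0.386 to 28.7 RPKM in PP and 47.6 to 136 in LP; 4.05 ± 1.10, adjusted p = 0.0697), Mlx (0.091 to 58.2 RPKM; 0.48 ± 1.51, adjusted p = 0.912) and Mxd4 (0.0382 to 26.1 RPKM; -0.09 ± 1.48, adjusted p = 0.985). By genotype, averaged over tissues, 0 of the 36 pathway genes passed, where 1 of all 10541 genes did. At an unadjusted p under 0.05 (limma) there were 2 of the 36, beside 718 of the 10541. In the interaction 0 of 36 passed, and 3 were at an unadjusted p under 0.05, beside 922 of the 10541. The median interaction was -1.29 over the 36 and -0.39 over all genes kept.

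**Figure D5:**
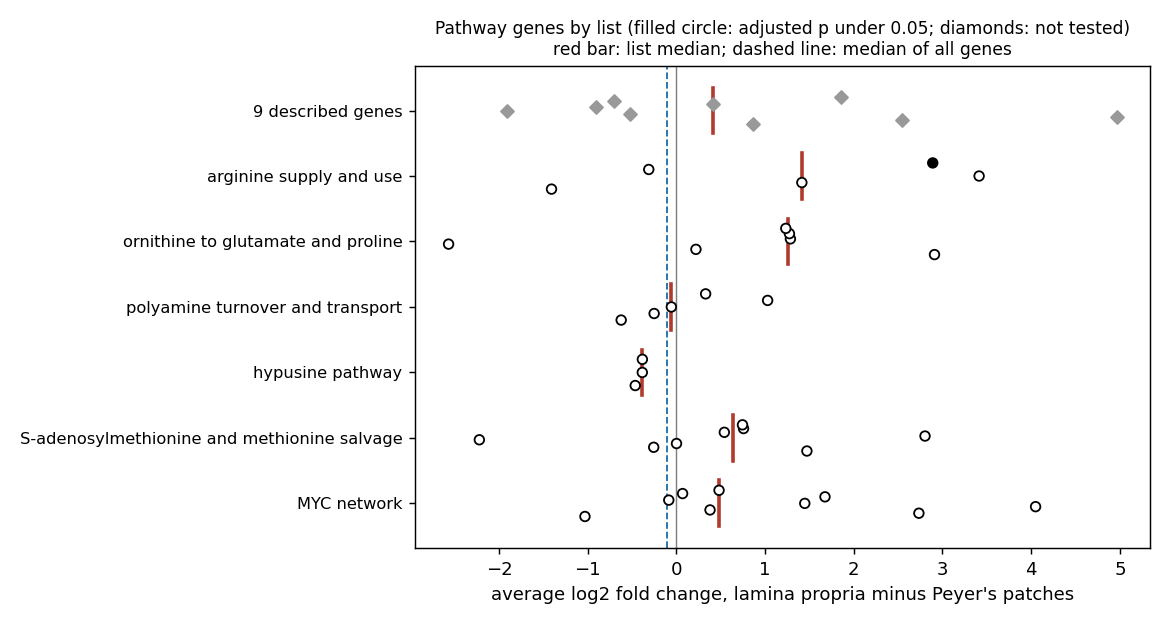
Average difference between LP and PP on the log2(RPKM + 1) scale for the 9 described genes (grey diamonds, not tested) and the 36 other pathway genes by list (circles, filled where the adjusted p is under 0.05). Red bars are list medians and the dashed line the median of all genes, -0.10; Slc3a2 at 2.89 is the 1 filled circle.

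Promoter sequences were matched for 6 of the 9 genes, 7 windows in all, in RefSeq's GRCm38.p6 table of 250 bases before to 50 after a start. Arg1, Azin1 and Srm had no entry. The windows were searched on both strands for the GC box GGGCGG, the MYC-type E-box CACGTG, and the TCF/LEF core, written as CTTTG followed by A or T and once more by A or T. In these windows no match of one motif overlapped a match of another. The upstream stretch of the Odc1 window is shown for the gene with the highest level in LP control, with its GC boxes in capitals (chr12:17544623-17544807, plus strand).
Odc1: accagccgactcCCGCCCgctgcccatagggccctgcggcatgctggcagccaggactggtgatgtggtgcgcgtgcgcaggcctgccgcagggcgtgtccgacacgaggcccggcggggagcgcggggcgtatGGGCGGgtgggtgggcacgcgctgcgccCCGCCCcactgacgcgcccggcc
A GC box was present in 35.7% of 32851 promoter windows of the same length, and in windows of Odc1, Oaz2, Sms, Sat1 and Amd1. The E-box occurred in 7.15% of windows and, among these 7, in 1 of the 2 Sms windows (chrX:157492451-157492510, minus strand, shown around the match). The TCF/LEF core occurred in 16.9% of windows and, among these 7, in that of Oaz2 (chr9:65676444-65676503, plus strand), shown because Tcf7 encodes a factor of that family.
Sms: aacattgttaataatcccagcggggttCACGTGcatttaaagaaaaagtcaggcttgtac
Oaz2: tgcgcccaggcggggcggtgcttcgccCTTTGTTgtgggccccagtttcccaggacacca
Neither Sms nor Oaz2 differed between genotypes beyond 1 standard error in either tissue. A match of letters is a description of the window and not a bound site.

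Across the 8 libraries the 9 genes varied in blocks. With log2(RPKM + 1) and n = 8 libraries, Pearson's r of Arg1 was 0.964 with Azin1, 0.955 with Amd1 and 0.912 with Odc1, and r of Odc1 was -0.835 with Oaz1 and -0.875 with Oaz2. Srm and Sms stood outside. For Srm r lay between -0.537 (Azin1) and 0.349 (Oaz1), and for Sms between -0.140 (Oaz2) and 0.255 (Amd1). These values describe 4 groups of 2 libraries that share tissue, genotype and preparation, and carry no p. Among 9559 named genes, those most like Arg1 included Fam167a (r = 0.994) and Gna13 (0.993). For Azin1 they were Rnf125 (0.996), Sytl3 (0.990) and Usp36 (0.989). Rnf125 repeated the 3 tiers of Azin1 at a like level: 0.596 and 0.472 RPKM in PP control, 14.9 and 12.5 in PP labelled knockout, 169.9 and 185.2 in LP control and 121 and 198 in LP labelled knockout. For Srm the nearest were Eef1a1 (0.980), Soat1 (0.975) and Coq9 (0.968). Coq9, of ubiquinone synthesis, was at 14.04 to 86.0 RPKM in the 4 controls and 0.126 to 1.05 in the 4 labelled knockout libraries. Soat1, which esterifies cholesterol, was at 7.97 to 39.5 RPKM in the 4 controls and 0.0271 to 0.119 in the 4 labelled knockout libraries. Eef1a1, a translation elongation factor at the other end of the abundance scale, was at 975 to 1075 RPKM in the controls and 750 to 775 in the labelled knockout, again without overlap.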

How the data were processed

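RNA of sorted LTi cells was measured in 8 Smart-seq2 libraries. The authors deposited 1 table of log2(RPKM + 1) per gene; its smallest entry, 0.0001, was read as 0. Subread's featureCounts and the mm10 build are named per the submitters' processing notes. The versions, annotation, strand setting and treatment of reads matching several genes were not given in these sources. To check the log base, low values were examined. Undoing log2 gave whole multiples of 1 read, within 0.1 reads, for 96.9% of 294 values. For ln it was 87.6% of 283, and with no log 73.5% of 313. Depth was fitted for each base to give the largest share of whole multiples, so only the ranking of the bases is read. Columns were matched to samples by the library codes that the labels give. Entrez identifiers were matched to RefSeq GRCm38.p6 for 25275 of 27179 genes.

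A gene was kept if 2 or more libraries reached 1 RPKM (10541, the 9 described genes included). Then log2(RPKM + 1), pseudocount 1, entered limma 3.58.1 (R 4.3.3; lmFit, then eBayes with trend), two-sided, with Benjamini-Hochberg adjustment over all genes kept and a threshold of 0.05. A model of 4 group means (4 residual degrees of freedom) gave the differences within a tissue or genotype and the interaction; an additive model (5), which takes all libraries as independent, gave average differences. Fold changes on this scale understate those of low genes. The smallest two-sided exact permutation p for 2 against 2 libraries is 0.333, so none was run. The fit was tested on simulated data. The named genes are the 9, pathway genes that passed, the 3 most abundant of each list and the 3 nearest genes of Arg1, Azin1 and Srm. Results of some genes under this rule are not reported here. Genes and lists were chosen with earlier results of these data known. Read numbers are approximate, from RPKM, length and estimated depth, and intervals from PCR reads without molecular identifiers would cover counting error only. Alternatives were pseudocounts of 0.1 and 5, other filters, 2 rescalings, no trend, only the 2 groups compared, a replicate block and each library left out.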

Additional observations from a re-analysis of the deposited data

Results flagged for a closer look

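Arg1 and Odc1 were singled out because the genotype difference had opposite directions in the 2 tissues. For Arg1, both PP labelled knockout libraries (470.6 and 477.1 RPKM) were above both PP controls (375.9 and 278.1), and both LP labelled knockout libraries (637.3 and 721.8) were below both LP controls (760.4 and 749.3). The difference between tissues was -0.70 ± 0.32 on the log2 scale (limma, adjusted p = 0.602), and it did not pass. For Odc1 the same order held, with 172 and 166 against 148 and 115 RPKM in PP and 893 and 534 against 1174 and 1033 in LP. The difference was -1.04 ± 0.44 (limma, adjusted p = 0.571) and did not pass either. In PP, where both genes were higher in the labelled knockout, mitochondrially encoded genes took 13.4% and 13.6% of summed RPKM in those libraries against 3.06% and 3.28% in control. The part of that difference in these values was not tested. After median-of-ratios rescaling the difference was 0.09 for Arg1 and -0.24 for Odc1, and the Odc1 genotype difference was then negative in both tissues.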

How the results depend on the processing

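With 2 libraries a group, every value here has a wide error. Of 194 recomputed values of tested differences (the interaction of the 9 genes, and Slc3a2 for tissue), 178 kept their direction and side of the threshold, 5 newly passed (Slc3a2 for tissue within 1 genotype) and 11 reversed, all of them interactions that had not passed; the cause was not tested. Of 900 recomputed tissue and genotype differences of the 9 genes, 32 changed sign, none of a value past the threshold. Of these 900, 6 came newly past it (4 for Azin1 in the labelled knockout, 1 for Oaz2 on average, 1 for Srm in PP), and 43 of 116 fell short of it where the reported value was past it. With median-of-ratios rescaling the reversed interactions were Arg1 (0.094), Oaz1 (0.69), Oaz2 (0.033) and Sat1 (0.63). Leaving out 1 library gave -0.35 to 0.13 for Oaz1 (above 0 without LP control 2, PP control 2 or LP labelled knockout 1), -0.99 to 1.55 for Sms (below 0 without PP control 1, PP labelled knockout 2 or LP labelled knockout 2) and -0.60 to 0.27 for Sat1 (above 0 without PP labelled knockout 1).

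For tissue in control, 3 of the 9 genes were called, against 1 with no trend, 0 with only the 2 groups compared, 0 without either LP control library and 2 without any other library. For tissue in the labelled knockout, 1 was called, against 2 with a pseudocount of 5, with median-of-ratios rescaling and with a total without immunoglobulin and mitochondrial genes, 0 with no trend or only the 2 groups compared, and 0 to 1 with a library left out, the 1 being without either PP control library. For genotype in PP, 0 were called, against 1 (Srm, adjusted p = 0.0338) with no trend. Of the 36 pathway genes, 0 were called for tissue in control, against 1 with no filter, with no trend and without PP control 1 (0 to 1 over libraries). For tissue in the labelled knockout, 0 were called, against 1 with a pseudocount of 5, with median-of-ratios rescaling and without either PP control library (0 to 1 over libraries). For the average tissue difference, 1 was called, against 3 with a pseudocount of 5, 2 with the total without immunoglobulin and mitochondrial genes or with no trend, and 1 to 3 over libraries left out, the 3 being without PP control 1. For genotype in LP, 0 were called, against 1 with no filter. Srm stayed negative in all alternatives of its genotype differences and Slc3a2 passed on average in 16 of 16.

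Over all 10541 genes, 456 were called for the average tissue difference (225 to 560 over the alternatives), 224 for tissue in control (0 to 257), 211 for tissue in the labelled knockout (0 to 230), 38 for genotype in PP (0 to 138), 3 for genotype in LP (0 to 56), 1 for average genotype (1 to 4) and 3 for the interaction (0 to 36); the 56 and the 36 came with no filter, which tests more genes.

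Same-numbered libraries shared only a number: correlations of their deviations from group means ran from -0.0214 to 0.0103. With the replicate block, 2 of the 9 genes and 2 of the 36 pathway genes were called for the average tissue difference, with 2 of the 9 for tissue in control and no change in the other counts of these genes. Over all genes it called 382 for the average tissue difference, 99 for tissue in control, 74 for tissue in the labelled knockout, 16 for genotype in PP, 0 for genotype in LP, 1 for average genotype and 1 for the interaction. Leaving out a library leaves its group with 1, which the fit assumes to vary like the others.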
